A study of Mus musculus with 9 samples.

Results

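The Ly6 family members followed here were Ly6a, Ly6c1, Ly6c2, Ly6d, Ly6e, Ly6f and Ly6g, 7 of the 50600 genes counted, picked by gene name after earlier results of these data were known. Ly6 proteins are small cell-surface proteins built on a disulphide-bonded fold with protruding loops, and most of them are held in the outer leaflet of the membrane by a glycosylphosphatidylinositol (GPI) anchor. Ly6a encodes Sca1 (stem cell antigen 1), best known as a marker of mouse blood stem cells. In the intestine, where resting epithelium expresses little of it, Sca1 is used to mark regenerating and foetal-like epithelium. Other members are markers of white blood cells in mice, such as Ly6c on monocytes and Ly6g on neutrophils, and Ly6e is induced by interferon.

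RNA was sequenced from 9 mouse libraries, in 3 groups of 3 numbered replicates. The 6 organoid libraries came from small intestine of WT mice (strain label C57BL/6) and were kept for 24 hr in conditioned medium mixed with concentrated ENR medium, which holds EGF, Noggin and R-spondin1. The conditioned medium was either that of tumoroids (T-cM) or that of WT organoids (WT-cM), and the titles and the treatment fields of these libraries name opposite media. The groups go by their titles here, as T-cM-titled organoids and WT-cM-titled organoids. Should the treatment field hold instead, every direction between them is reversed. The 3 tumoroid libraries came from intestinal tumours of Apc1638N/+ mice (strain label MIX) and were labelled untreated. The methods give tumoroids a medium without R-spondin1, whereas the protocol in the labels lists a medium with it for untreated cultures, and which one these libraries had is not settled here. Per the methods, the tumours came from older mice than the organoids, and all mice were of mixed background. Genotype, tumour origin, strain label, age and culture therefore cannot be told apart in any comparison with tumoroids. The methods require lines from different mice for each experiment, and do not tie a library to a mouse.

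Between 16541635 and 25170966 reads were counted per library. Levels are given as TPM, the deposited values that correct for gene length and library total, wherever genes are compared with each other. They are given as CPM, counts scaled to a common library total with TMM normalisation, where libraries are compared. A count of 3 reads, taken as the least that shows expression, came to between 0.103 and 0.2035 CPM. That limit, like the counting intervals given later, covers counting error alone, as PCR copies of a molecule could not be recognised. The cell type labels were checked against markers. The 8 epithelial markers summed to between 9850 and 12400 CPM in organoids and to between 6500 and 7380 CPM in tumoroids, and each had more than 3 reads in every library. Krt20, a marker of differentiated enterocytes, was among the lower ones in tumoroids, with 0.816, 3.12 and 7.69 CPM against a mean of 770.5 ± 139 CPM (SD, n = 3) in WT-cM-titled organoids.

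The 7 genes lie within 510.18 kb of chromosome 15 (GRCm38), from chr15:74762056-74763620 (Ly6d, minus strand) to chr15:75268421-75272235 (Ly6f, plus strand). Between these lie Ly6e at chr15:74955051-74959905 on the plus strand, Ly6a at chr15:74994877-74998031 on the minus strand and Ly6c1 at chr15:75044018-75048830 on the minus strand. Ly6c2 follows at chr15:75108158-75111970 on the minus strand and Ly6g at chr15:75155240-75159126 on the plus strand. All 7 are protein-coding, and none overlaps another annotated gene. Ly6c1 and Ly6c2 are near copies in part of their transcripts. Of all 100-base windows of Ly6c1 transcripts, 10.14% also occur in transcripts of Ly6c2 or Ly6a, and 5.809% of those of Ly6c2 occur in Ly6c1. How reads that fit several genes were counted is not given in the sources used here, so counts of Ly6c1 and Ly6c2 are uncertain to that extent. For Ly6a the share was 1.449%, and Ly6d, Ly6e, Ly6f and Ly6g had no shared window.

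Promoter sequences from RefSeq (GRCm38.p6) were at hand for 4 of the 7 genes. They are shown because these neighbours are alike just upstream of transcription and had very different levels in tumoroids, from a mean of 0.0367 TPM (Ly6c2) to one of 153.5 TPM (Ly6c1). The stretches end before the first transcribed base and cover chr15:75048838-75049087 (Ly6c1, minus strand), chr15:75111972-75112221 (Ly6c2, minus strand), chr15:75268171-75268420 (Ly6f, plus strand) and chr15:75155011-75155239 (Ly6g, plus strand). Capitals mark the longest run of bases found in all 4.
Ly6c1: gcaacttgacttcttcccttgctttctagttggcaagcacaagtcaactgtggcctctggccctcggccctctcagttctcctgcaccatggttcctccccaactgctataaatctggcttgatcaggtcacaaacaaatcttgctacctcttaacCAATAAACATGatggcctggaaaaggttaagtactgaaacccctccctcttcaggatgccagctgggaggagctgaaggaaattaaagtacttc
Ly6c2: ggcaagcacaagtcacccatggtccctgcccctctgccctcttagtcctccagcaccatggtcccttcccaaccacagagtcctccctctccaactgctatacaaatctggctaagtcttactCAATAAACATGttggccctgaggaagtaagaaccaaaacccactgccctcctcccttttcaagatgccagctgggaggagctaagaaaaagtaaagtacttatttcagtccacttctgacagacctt
Ly6f: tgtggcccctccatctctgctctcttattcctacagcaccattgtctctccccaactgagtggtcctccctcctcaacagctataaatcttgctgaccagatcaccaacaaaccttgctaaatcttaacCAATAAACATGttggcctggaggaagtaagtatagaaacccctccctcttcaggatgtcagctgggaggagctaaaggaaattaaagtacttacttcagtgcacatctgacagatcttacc
Ly6g: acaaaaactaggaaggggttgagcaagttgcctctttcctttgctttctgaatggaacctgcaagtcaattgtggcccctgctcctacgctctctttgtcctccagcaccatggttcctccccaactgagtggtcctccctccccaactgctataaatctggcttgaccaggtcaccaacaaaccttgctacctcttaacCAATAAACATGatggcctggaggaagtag
In pairwise alignments, between 75.9% (Ly6c1 and Ly6c2) and 88% (Ly6f and Ly6g) of the aligned bases were identical. The shared 11-base run was found on either strand in 17 of 32851 RefSeq promoter windows of 300 bases (0.0517%), from 15 genes, 4 of which are the genes above. Binding motifs were searched on both strands of the 300-base windows of these 4 genes. None held the TEAD motif GGAATG (in 14.7% of all promoters), the TCF/LEF motif ATCAAAG (3.73%), the AP-1 motif TGANTCA (7.81%), the interferon-gamma-activated site TTCNNNGAA (8.3%) or the core of the interferon-stimulated response element, TTTCNNTTT (10.6%). That says only that these letters are not in these windows.

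In organoids, 3 of the 7 genes had more than 3 reads in every library. Ly6a, Ly6d and Ly6e had at least 27 reads in every organoid library. Ly6c1, Ly6f, Ly6g and Ly6c2 had between 0 and 5 reads per organoid library. To be tested, a gene had to reach 1 TPM in some library, and 6 of the 7 genes did. Ly6c1, Ly6f and Ly6g did so through tumoroids alone, so that the filter itself favoured a higher level in tumoroids for them. Ly6c2 fell short.

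**Figure D1:**
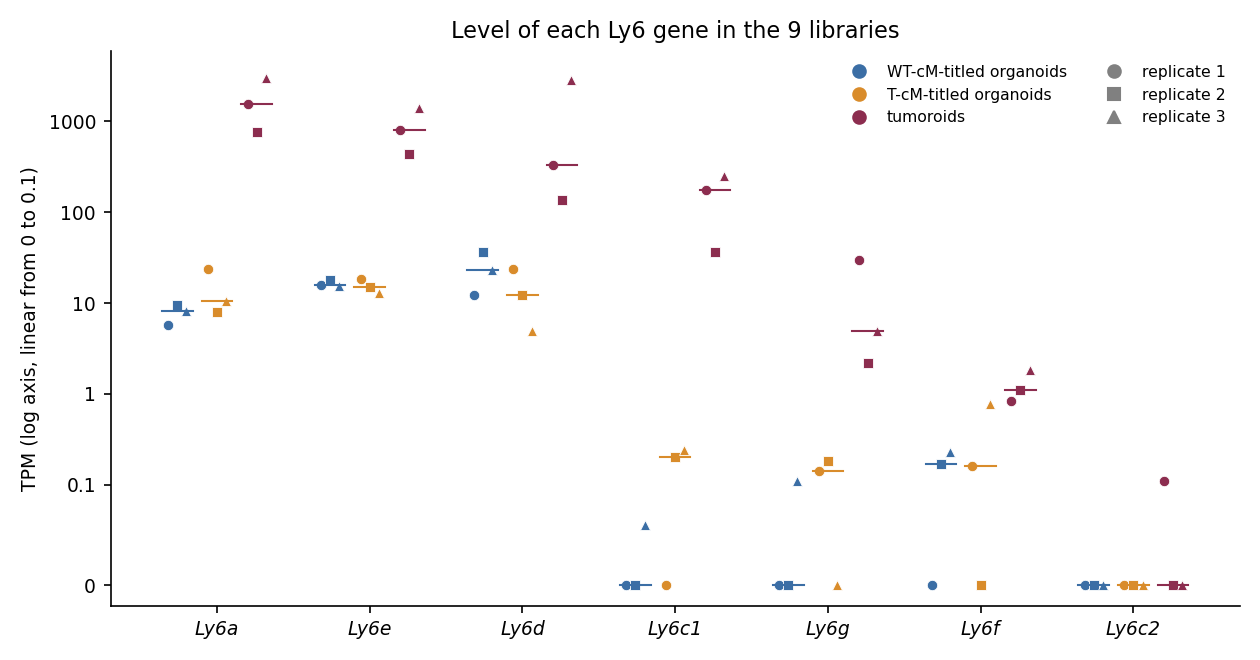
TPM of each of the 7 Ly6 genes in the 9 libraries, on an axis that is logarithmic above 0.1 and linear from 0 to 0.1; colours are groups, marker shapes are replicate numbers and short lines are medians of 3 libraries. For Ly6a, Ly6e and Ly6d the 3 tumoroids lie above all 6 organoid libraries, which in CPM held for 25.6% of all tested genes. The same is seen for Ly6c1 and Ly6g, which passed the TPM filter through tumoroids alone. Ly6f does not exceed 0.77 TPM in organoids and 1.82 TPM in tumoroids, and Ly6c2 is near 0.

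Ly6a, the gene of Sca1, was expressed at a low level in organoids. It had 5.75, 9.44 and 8.23 TPM in WT-cM-titled organoids 1 to 3 and 23.9, 8.03 and 10.6 TPM in T-cM-titled organoids 1 to 3. In tumoroids 1 to 3 it had 1568, 764.5 and 3020 TPM. Every tumoroid was thus far above every organoid library, while the organoid groups overlapped, with T-cM-titled organoids 1 standing above the other 5. By TPM, Ly6a ranked between 26 and 150 among all genes of a tumoroid, and between 5282 and 9257 among those of an organoid library.

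Ly6e, an interferon-inducible member that limits the entry of several viruses, was the most even of the 3 genes expressed in organoids. It had 15.7, 18.1 and 15.5 TPM in WT-cM-titled organoids and 18.2, 15.1 and 13 TPM in T-cM-titled organoids. The 6 organoid libraries formed a single narrow range. In tumoroids 1 to 3 the level was 805.6, 441.9 and 1390 TPM.

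Ly6d, a marker of early B cells and of stratified epithelium, was the most uneven. It had 12.2, 36.5 and 23 TPM in WT-cM-titled organoids and 24, 12.1 and 4.88 TPM in T-cM-titled organoids, so that the groups overlapped and the order of the numbered pairs was not kept. In tumoroids it had 331.9, 136.7 and 2852 TPM. Tumoroid 3 was far above the other two, and its CPM was 21.8 times that of tumoroid 2, against 4.12 times for Ly6a and 3.28 times for Ly6e between the same libraries.

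Ly6c1, one of the genes of the monocyte antigen Ly6C and also expressed by endothelium, went from almost no reads to a clear level. The reads numbered 0, 0 and 1 in WT-cM-titled organoids, 0, 2 and 3 in T-cM-titled organoids, and 1964, 445 and 3410 in tumoroids 1 to 3. The tumoroid levels came to 173.8, 36.8 and 250 TPM. Its neighbour Ly6c2, which encodes a nearly identical protein, had 2 reads in tumoroid 1 and none in the other 8 libraries. Both groups of Ly6c2 were at or under 3 reads and no fold is given.

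Ly6g, the neutrophil marker recognised by the antibody to Gr1, had 0, 0 and 1 reads in WT-cM-titled organoids and 1, 1 and 0 reads in T-cM-titled organoids. In tumoroids 1 to 3 it had 188, 15 and 38 reads, or 29.6, 2.21 and 4.96 TPM. All 3 tumoroids were above all organoids, but Ly6g had passed the TPM filter through tumoroids alone. Most of its reads were in tumoroid 1. Ly6f stayed near the limit of detection, with 0, 1 and 2 reads in WT-cM-titled organoids, 1, 0 and 5 reads in T-cM-titled organoids, and 5, 7 and 13 reads in tumoroids. Its highest organoid library lay among the tumoroids in CPM.

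Within tumoroids the order by mean TPM was Ly6a (1784 ± 1143, SD, n = 3), Ly6d (1107 ± 1515), Ly6e (879 ± 478.1), Ly6c1 (153.5 ± 108), Ly6g (12.3 ± 15.1), Ly6f (1.26 ± 0.506) and Ly6c2 (0.0367 ± 0.0635). Ly6a was above Ly6d and Ly6e in each of the 3 tumoroids, although the ranges of the 3 genes overlapped. Ly6d and Ly6e had no fixed order, with Ly6e above Ly6d in tumoroids 1 and 2 and below it in tumoroid 3. Within both organoid groups Ly6d and Ly6e overlapped, and Ly6a was below Ly6e in every library but T-cM-titled organoids 1.

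The make-up of the family also differed between groups, as a description with no test. The 7 genes summed to between 29.5 and 66.3 TPM in the 6 organoid libraries and to 2910, 1380 and 7520 TPM in tumoroids 1 to 3. Ly6a supplied 17.1%, 14.7% and 17.5% of that sum in WT-cM-titled organoids 1 to 3. It supplied 36%, 22.5% and 35.9% in T-cM-titled organoids and 53.9%, 55.3% and 40.2% in tumoroids. The 3 ranges did not overlap, but a share also moves with the other members. In pair 2 Ly6a was lower in the T-cM-titled library (8.03 TPM against 9.44), yet its share was higher. Ly6d had 12.1 TPM there against 36.5 TPM in the WT-cM-titled library. The share of Ly6d was 36.3%, 56.8% and 48.8% in WT-cM-titled organoids, 36.2%, 34% and 16.5% in T-cM-titled organoids, and 11.4%, 9.88% and 37.9% in tumoroids, so that Ly6d led in 2 of the 3 WT-cM-titled libraries, narrowly in T-cM-titled organoids 1, and in no tumoroid.

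**Figure D2:**
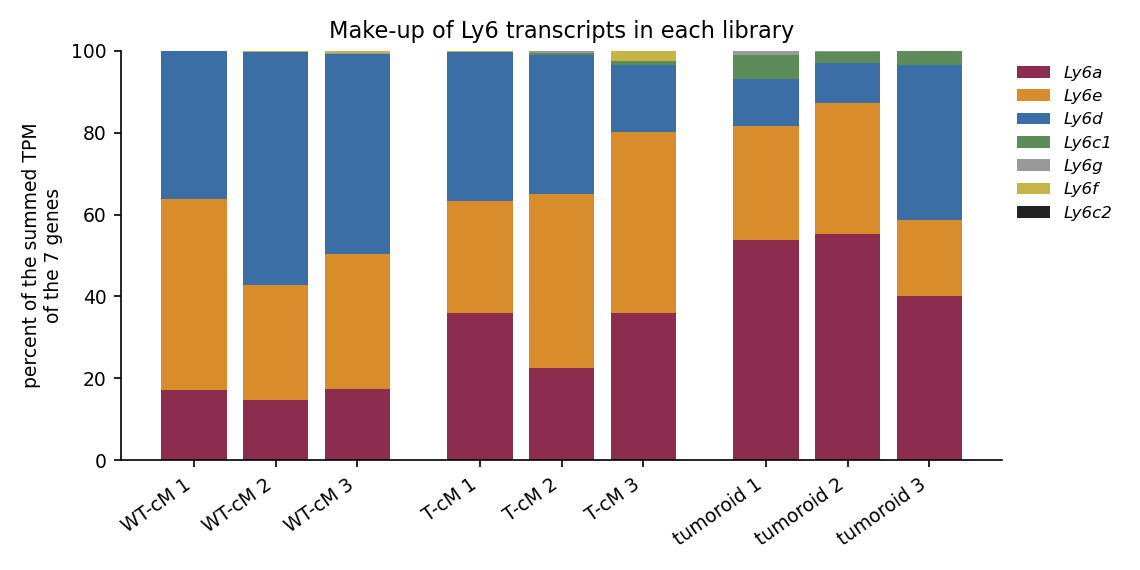
Percent of the summed TPM of the 7 Ly6 genes taken by each gene (vertical axis) in each of the 9 libraries (bars). Ly6a takes between 14.7% and 17.5% in WT-cM-titled organoids, between 22.5% and 36% in T-cM-titled organoids and between 40.2% and 55.3% in tumoroids, and the share of Ly6d in tumoroid 3 (37.9%) is the largest among tumoroids. A share also moves with the levels of the other genes.

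The organoid groups were compared to ask how the medium of tumoroids changes normal epithelium. No Ly6 gene passed the test between the organoid groups, taken as titled (edgeR's quasi-likelihood F test with replicate number as a block, Benjamini-Hochberg over 16208 genes). A gene was called at an adjusted p under 0.05 with an absolute log2 fold change above 1, which 1.1% of all tested genes met, 0.673% in the higher and 0.432% in the lower direction. At an unadjusted p under 0.05 there were 2 Ly6 genes, Ly6a and Ly6d. The share of all tested genes at that limit was not counted, so this count is a description only. With an adjusted p under 0.05 and no fold asked, 1634 of the 16208 genes passed. DESeq2 and limma voom called 0 of the Ly6 genes. The log2 fold change of Ly6a was 0.74 (SE 0.25, adjusted p = 0.056) and the gene was higher in 2 of 3 pairs. The log2 differences were 2.04 in pair 1, -0.26 in pair 2 and 0.30 in pair 3. Most of the difference lay in pair 1, and without that pair the log2 fold change was 0.06 (adjusted p = 0.92). Over the other settings tried, the adjusted p of Ly6a ran from 0.00064 (without the TPM filter) to 1, and its log2 fold change passed 1 only without pair 2 (1.17).

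Ly6d had a log2 fold change of -0.87 (SE 0.31, adjusted p = 0.077), with log2 differences of 0.98, -1.60 and -2.23 in pairs 1 to 3. It was lower in pairs 2 and 3 and higher in pair 1. Without pair 1 its log2 fold change was -1.89 and it was called (adjusted p = 3.5e-18, on 4 libraries), whereas without pair 2 it was -0.50 and without pair 3 it was -0.31. Without the TPM filter the adjusted p of Ly6d was 3.1e-05 at a log2 fold change of -0.87, below the fold required, and with DESeq2 it was 0.6. Ly6e had a log2 fold change of -0.11 (SE 0.11, adjusted p = 0.66), with differences of 0.24, -0.30 and -0.31 in pairs 1 to 3. In pair 1 all 3 genes were thus higher in the T-cM-titled library, and in pair 2 all 3 were lower. Ly6c1, Ly6f and Ly6g had at most 5 reads in any organoid library and were not called between the organoid groups (adjusted p = 0.47, 0.69 and 0.86). At this depth a small difference could not be seen, and no fold is given.

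**Figure D3:**
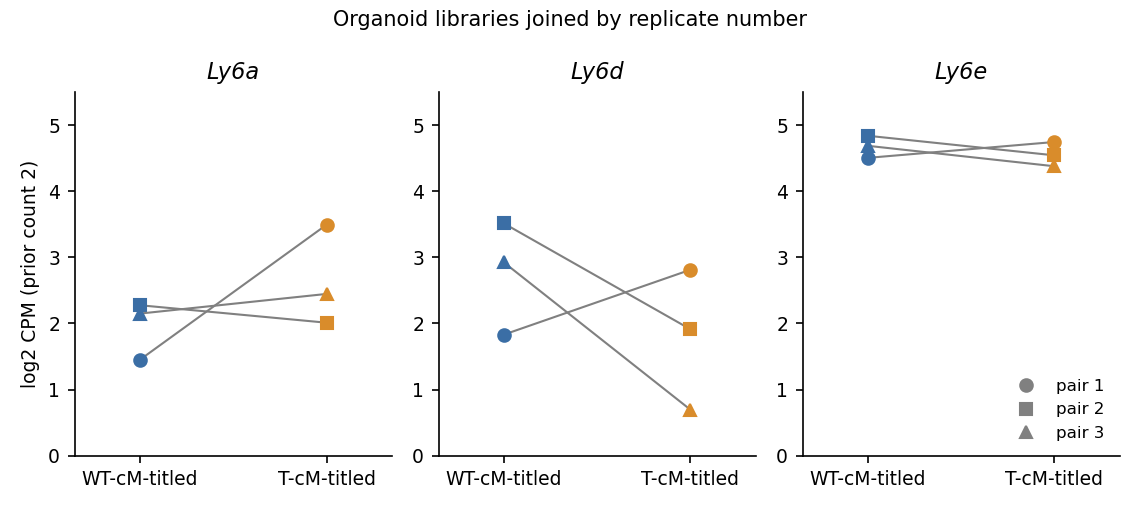
Level of Ly6a, Ly6d and Ly6e as log2 CPM (prior count of 2, vertical axis) in WT-cM-titled and T-cM-titled organoids, with grey lines joining libraries of the same replicate number. Ly6a rises by 2.04 in pair 1 and by 0.30 in pair 3, Ly6d falls in pairs 2 and 3 but not in pair 1, and Ly6e stays within 0.31 in all 3 pairs.

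Tumoroids were compared with each organoid group, and with the mean of both, over all 9 libraries in 1 fit. Ly6a, Ly6d and Ly6e, the 3 genes that passed the TPM filter in organoids too, were all called higher in tumoroids against each of these. Ly6c1 and Ly6g also met the call, but they had entered the test through tumoroids alone, so their calls are no separate support. Ly6f was not called and Ly6c2 was not tested. Among all tested genes, 29.8% were called against WT-cM-titled organoids (18.2% higher), 31.2% against T-cM-titled organoids (19.4% higher) and 33.1% against the mean of both (21% higher and 12.1% lower). All 3 tumoroids were above all 6 organoid libraries in CPM for Ly6a, Ly6d and Ly6e, as they were for 25.6% of all tested genes. In bulk RNA, more cells that express a gene and more RNA per cell cannot be told apart. The 3 comparisons share the tumoroid libraries, and that with the mean shares the organoids too.

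Ly6a was 118-fold higher in tumoroids than in the mean of both organoid groups, a log2 fold change of 6.89 (SE 0.47, adjusted p = 4.8e-06), and it was higher in 3 of 3 tumoroids. Without tumoroid 3 the log2 fold change was 6.29 (adjusted p = 3.3e-06). Set against each organoid group alone, Ly6a had log2 fold changes of 7.29 (SE 0.66, WT-cM-titled) and 6.48 (SE 0.63, T-cM-titled). Ly6e was 38.7-fold higher, with a log2 fold change of 5.27 (SE 0.31, adjusted p = 2.5e-06), and had the smallest SE of the family. Ly6d was 42.3-fold higher, with a log2 fold change of 5.40 (SE 0.86, adjusted p = 0.00061). The size for Ly6d rests on tumoroid 3, without which the log2 fold change was 3.21 (adjusted p = 0.00078), still past the test.

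For the genes almost absent from organoids the summed reads were compared directly, with exact 95% intervals for counting error. Ly6c1 had 5819 reads in tumoroids and 6 in organoids, a ratio of normalised reads of 1349 (620 to 3678). By tumoroid the ratio was 1611, 299.5 and 2120, so that tumoroid 2 lay below the interval of the sum, which covers counting error alone. Ly6g had 241 and 3 reads, a ratio of 112 (37.8 to 546). The ratio was 309 (104 to 1509) in tumoroid 1 against 20.2 (5.71 to 109) in tumoroid 2, and without tumoroid 1 the fitted log2 fold change of Ly6g went from 6.74 to 4.86. Ly6f had 25 and 9 reads, a ratio of 3.86 (1.75 to 9.41), and was not called (log2 fold change 1.94, SE 0.83, adjusted p = 0.077), although limma voom (adjusted p = 0.031), edgeR 4's own quasi-likelihood form (0.036), the fit with a replicate block (0.044), log2 TPM with a pseudocount of 0.1 (0.016) and the fit without T-cM-titled organoids 3 (0.025), which held 5 of the 9 organoid reads, called it. DESeq2 did not. Since Ly6f had passed the TPM filter through tumoroids alone, these calls are no support either.

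**Figure D4:**
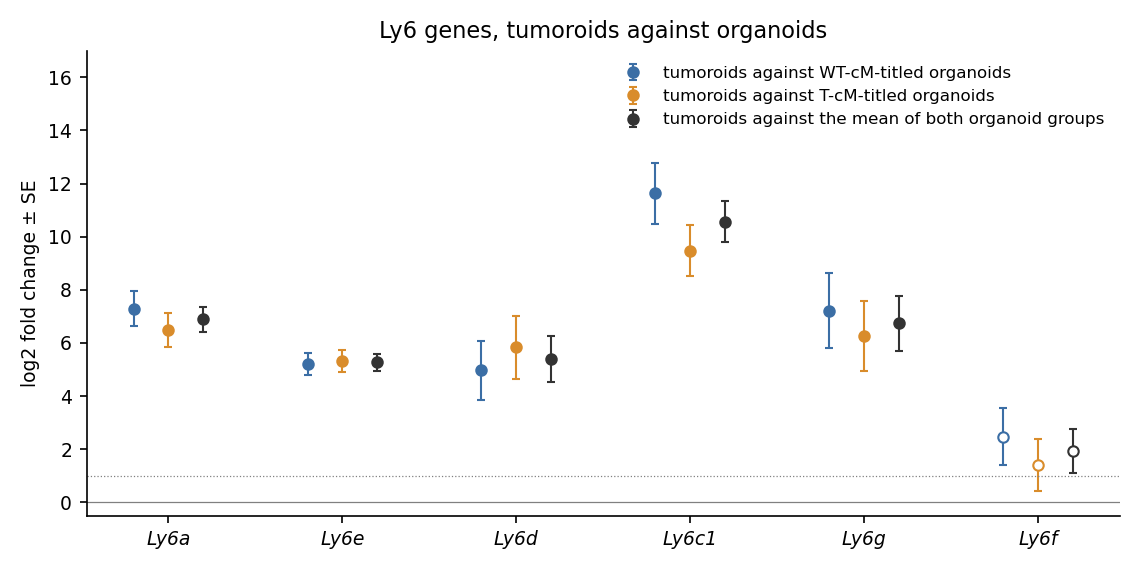
Log2 fold change with its SE (vertical axis) of the 6 tested Ly6 genes, tumoroids against WT-cM-titled organoids, T-cM-titled organoids and the mean of both; filled points were called and the dotted line marks a log2 fold change of 1. Ly6a, Ly6e and Ly6d are filled in all 3 comparisons, as are Ly6c1 and Ly6g, which passed the TPM filter through tumoroids alone, and the points of Ly6f are open.

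The tumoroids were not alike in these genes. Tumoroid 3 had the highest CPM for 5 of the 6 tested genes, which 36.1% of all tested genes also showed. Tumoroid 2 had the lowest for 5 of 6 (32.6% of all tested genes). The order tumoroid 3, 1, 2 held for Ly6a, Ly6c1, Ly6d and Ly6e (17.2% of all tested genes). Ly6g broke the order, with 8.52, 0.558 and 1.31 CPM in tumoroids 1 to 3, and Ly6f had its lowest level in tumoroid 1.

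Markers of other cells were read beside these values, because Ly6 genes are also expressed by such cells. For Ly6g and neutrophils, 10 markers summed to between 0.106 and 0.426 CPM in organoids and to 41.7, 3.61 and 188 CPM in tumoroids. Nearly all of that was Ltf (lactoferrin, also made by glands), with 41, 3.5 and 187 CPM. The defining markers S100a8 and S100a9 were at 0.362 CPM or less in every library, and Camp and Retnlg had no read anywhere. Over tumoroids 1 to 3 S100a8 had 8, 0 and 7 reads and S100a9 had 4, 0 and 9. S100a8 was highest and lowest in the same libraries as Ly6g, whereas S100a9 and Ltf were highest in tumoroid 3. With so few reads of S100a8 and S100a9, their order is uncertain. S100a8 and Ltf were called higher in tumoroids, having reached 1 TPM there alone, and S100a9 was not called. For Ly6c1, the 10 monocyte and macrophage markers summed to between 11.9 and 17.6 CPM in organoids and to 55.9, 46.3 and 222 CPM in tumoroids, of which Cd14 made up 47.7, 19.7 and 194 CPM and Csf1r 20.5 CPM in tumoroid 2. Of the 5 tested, Cd14, Csf1r and Cd68 (4.58, 5.58 and 20.5 CPM, log2 fold change 3.99) were called higher and Mrc1 (-3.11) lower. Of all tested genes 21% were called higher and 12.1% lower. Lyz2 also had a lower level (-2.22) but was not called. Itgam, not tested, had 0.227, 0.409 and 0.309 CPM in tumoroids against means of 1.17 and 0.812 CPM in WT-cM-titled and T-cM-titled organoids. Fcgr1 had no read in any library, Adgre1 none in tumoroids, and Ccr2 at most 0.24 CPM.

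Endothelial markers summed to between 2.99 and 4.29 CPM in organoids and to 16.3, 9.52 and 17.2 CPM in tumoroids, with no read of Kdr or Emcn in any library. Of the 4 tested, Esam (log2 fold change 2.5), Egfl7 (2.32) and Cdh5, which reached 1 TPM in tumoroid 3 alone, were called higher. Tek was not called (0.28), and 21% of all tested genes were called higher. Of those not tested, Vwf had 2.72, 0.93 and 2.2 CPM in tumoroids. Pecam1, also not tested, went the other way, with 0.227, 0.186 and 0.172 CPM in tumoroids against means of 0.675 and 0.714 CPM in WT-cM-titled and T-cM-titled organoids. Fibroblast markers summed to between 0.678 and 1.69 CPM in organoids and to 4.85, 2.57 and 48.6 CPM in tumoroids, of which Acta2 made up 46 CPM in tumoroid 3. Col3a1 and Lum had no read in any library. The 10 lymphocyte markers summed to at most 1.09 CPM in any library. For Ly6d, markers of stratified epithelium summed to between 3.8 and 6.14 CPM in organoids and to 78.6, 105 and 346 CPM in tumoroids. Tumoroid 3, where Ly6d was highest, also had the highest Krt14 (204 CPM against 14.7 and 3.98) and Trp63 (36.6 CPM against 0.317 and 0.112), both of basal cells. Dsg3, a desmosomal cadherin, was highest in tumoroid 2 instead (15.8, 61.7 and 14.5 CPM), and Krt15 was not called (log2 fold change -0.84). Of the 10 tested, 8 had reached 1 TPM in tumoroids alone, among them each of the 7 called higher, so that this count is no support. The part of such cells in the levels of Ly6 genes was not tested.

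Other genes with a Ly6 name or listed for a Ly6/uPAR domain, some of them within the cluster, were mixed in direction. Of 30 such genes, 19 were tested. Of these, 10 were called higher and 3 lower in tumoroids than in the mean of both organoid groups. Among all tested genes 21% and 12.1% were. Of the 19, 7 had reached 1 TPM in tumoroids alone, and 4 of the 10 higher calls were among these (Slurp1, Lypd3, Lypd5 and Lypd6b), so their direction followed from the filter. Of the other 12, 6 were called higher. The median log2 fold change of the 19, to which the same limit applies, was 2.03, beside 0.165 over all tested genes. Lypd8, which is secreted into the gut lumen and keeps flagellated bacteria from the epithelium, went the other way from Ly6a. It had a mean of 883.8 ± 118.2 CPM (SD, n = 3) in WT-cM-titled organoids and 1013 ± 84.7 CPM in T-cM-titled organoids, against 75.5, 46.9 and 57.7 CPM in tumoroids. Its log2 fold change was -3.98 (SE 0.22, adjusted p = 1.8e-06). The other two that fell were Cd59b, an inhibitor of complement, and Ly6g6f, which were named after their values were seen. Among those that rose were Lypd6b (7.61, 7.33 and 11 CPM in tumoroids, log2 fold change 5.15, SE 0.41) and Lynx1, a regulator of nicotinic acetylcholine receptors (18.3, 15.9 and 43.8 CPM, 4.10, SE 0.39). Ly6g6e, another gene of the Ly6 fold, had 3.13, 1.12 and 8.28 CPM in tumoroids and a log2 fold change of 3.66 (SE 0.55), again with tumoroid 3 highest and tumoroid 2 lowest.

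Between the organoid groups 0 of the 19 were called by edgeR's quasi-likelihood test, DESeq2 or limma voom. Without pair 3 edgeR called 1 higher. At an unadjusted p under 0.05 there were 6, and the share of all tested genes at that limit was not counted. Plaur, the urokinase receptor, had 16.4, 18.1 and 16.7 CPM in WT-cM-titled organoids and 26.6, 33.6 and 26.3 CPM in T-cM-titled organoids. The log2 fold change of 0.76 (SE 0.11, adjusted p = 1.5e-05) was below the fold required. Psca (prostate stem cell antigen) was likewise below that fold, with 1.92, 3.77 and 2.83 CPM against 4.92, 6.24 and 4.396 CPM and a log2 fold change of 0.90 (SE 0.20, adjusted p = 0.0029). Lypd8 had a log2 fold change of 0.22 and did not pass (adjusted p = 0.072).

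Within the 510.18 kb of the cluster, 22 other genes were in the count table. They include Ly6i, Ly6k, Gml and Gml2, which also belong to the list above. Of the 22, 8 were tested, and 2 were called higher in tumoroids, a share near the 21% of all tested genes, 0 lower and 0 between the organoid groups. The 2 were Gm17189, annotated as antisense, with 26, 22 and 155 reads in tumoroids 1 to 3, and 2010109I03Rik with 38, 18 and 890 reads. Gm17189 had reached 1 TPM in tumoroids alone, so its direction followed from the filter. The libraries were made with a stranded kit, but whether counting used the strand is not given in the sources used here, so it is uncertain how far reads of Gm17189 are separate from those of Ly6k, which it overlaps (0, 0 and 18 reads in tumoroids). Like Ly6d, 2010109I03Rik had most of its reads in tumoroid 3. BC025446, a gene between Ly6g and Ly6f, was not called (942, 874 and 1063 reads in tumoroids, and from 456 to 1075 reads in organoids, log2 fold change -0.04, adjusted p = 0.9).

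The enzymes that make the GPI anchor, on which most Ly6 proteins depend, seldom passed the test. Of 28 genes, 27 were tested, and 1 was called higher and 0 lower in tumoroids, against 21% and 12.1% of all tested genes, with a median log2 fold change of -0.28. On log2 TPM with a pseudocount of 0.1 or 1, 5 or 3 were called higher. Pgap2, which remodels the lipid of the finished anchor, was the 1 called, with 68.6, 65 and 70.2 CPM in tumoroids against 32.2 ± 0.868 and 29.3 ± 4.86 CPM (SD, n = 3) in WT-cM-titled and T-cM-titled organoids. At an adjusted p under 0.05 and with no fold asked, 5 were higher and 10 lower. Of all 16208 tested genes 8165 passed at that limit. Among the GPI anchor genes that passed it were Pigv (log2 fold change 0.78), a mannosyltransferase of the pathway, and Pigo (-0.78), which adds ethanolamine phosphate. Another was Pigt (-0.71), a subunit of the transamidase that joins the anchor to the protein. Between the organoid groups 0 were called by edgeR's quasi-likelihood test, DESeq2 or limma voom. There were 8 with an unadjusted p under 0.05, for which the share of all tested genes was not counted. The nearest were Pigg (log2 fold change -0.42), Pgap1 (0.27) and Pigl (0.35).

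Ly6a and Ly6e are interferon-inducible genes, and of 34 tested genes of interferon signalling and response 9 were called higher and 1 lower in tumoroids, with a median log2 fold change of 0.07. The share called higher was near the 21% of all tested genes, and 5 of the 9 (Ifit2, Oas2, Ifi44, Gbp2 and Gbp3) had reached 1 TPM in tumoroids alone. Ifitm3, a membrane protein that restricts viruses, had 263.9, 66.7 and 936 CPM in tumoroids 1 to 3, in the order of Ly6a and Ly6e, against 3.49 ± 2.46 and 1.98 ± 1.47 CPM (SD, n = 3) in WT-cM-titled and T-cM-titled organoids. Its log2 fold change was 7.31 (SE 0.80, adjusted p = 6.1e-05). Ifi27l2a followed with 7.43, 5.91 and 69.7 CPM and Bst2, the virion-tethering protein tetherin, with 37.3, 31.6 and 51.3 CPM (log2 fold changes 7.27 and 1.44). Ifit2 was called too (9.70, 9.22 and 11.9 CPM, log2 fold change 3.54). Some standard response genes were not called, such as Isg15 (log2 fold change -0.34) and Irf7 (-0.42), and Psmb8, a subunit of the immunoproteasome, was the 1 that fell (-1.84, adjusted p = 0.0027).

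Between the organoid groups 1 of the 34 was called, Ifit3, with a log2 fold change of -1.27 (SE 0.38, adjusted p = 0.029), and DESeq2 and limma voom called 0. Of all tested genes 1.1% were called in this comparison, 0.432% in the lower direction. Psmb9 (-0.71, adjusted p = 0.004) and Ifitm3 (-0.80, adjusted p = 0.029) had a lower level in T-cM-titled organoids and Irf1 (0.29, adjusted p = 0.036) a higher one, but all 3 stayed below the fold required. Ly6e, at -0.11, did not pass at either limit.

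Genes used together with Sca1 to mark foetal-like and regenerating epithelium were higher in tumoroids in most cases, 10 of 12 called and 0 lower. Of all tested genes, 21% were called higher and 12.1% lower. The median log2 fold change of the 12 was 4.27, beside 0.165 over all tested genes. Of the 12, 3 had reached 1 TPM in tumoroids alone and were among the 10, a limit that applies to the median too. Of the other 9, 7 were called higher. Spp1 (osteopontin), one of those 3, had 529, 1573 and 1504 CPM in tumoroids and 0.0608 ± 0.105 and 0.131 ± 0.183 CPM (SD, n = 3) in the organoid groups. Anxa3 (log2 fold change 2.89, SE 0.14) and Il1rn (3.37, SE 0.22) were nearly equal in the 3 tumoroids, unlike any of the Ly6 genes called.

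Between the organoid groups 3 of these 12 were called higher in T-cM-titled organoids (Il33, Msln and S100a6), 0 lower, and the median log2 fold change was 0.68. Of all tested genes 0.673% were called higher and 0.432% lower, and their median was 0. S100a6, a calcium-binding protein, had 378.9, 395.2 and 234.9 CPM in WT-cM-titled and 720.4, 787.7 and 608.6 CPM in T-cM-titled organoids, and its log2 fold change was 1.11 (SE 0.08, adjusted p = 2.6e-10). Msln (mesothelin) had a log2 fold change of 1.11 (SE 0.12, adjusted p = 1.2e-07). For both, every T-cM-titled library was above every WT-cM-titled one, which was not so for Ly6a. The share of all tested genes with such a gap was not counted. Sprr1a, a cornified envelope protein, had a log2 fold change of 0.86 (adjusted p = 2e-06), below the fold required. Without the replicate block 0 of the 12 were called, and leaving out a pair gave 0 to 2.

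**Figure D5:**
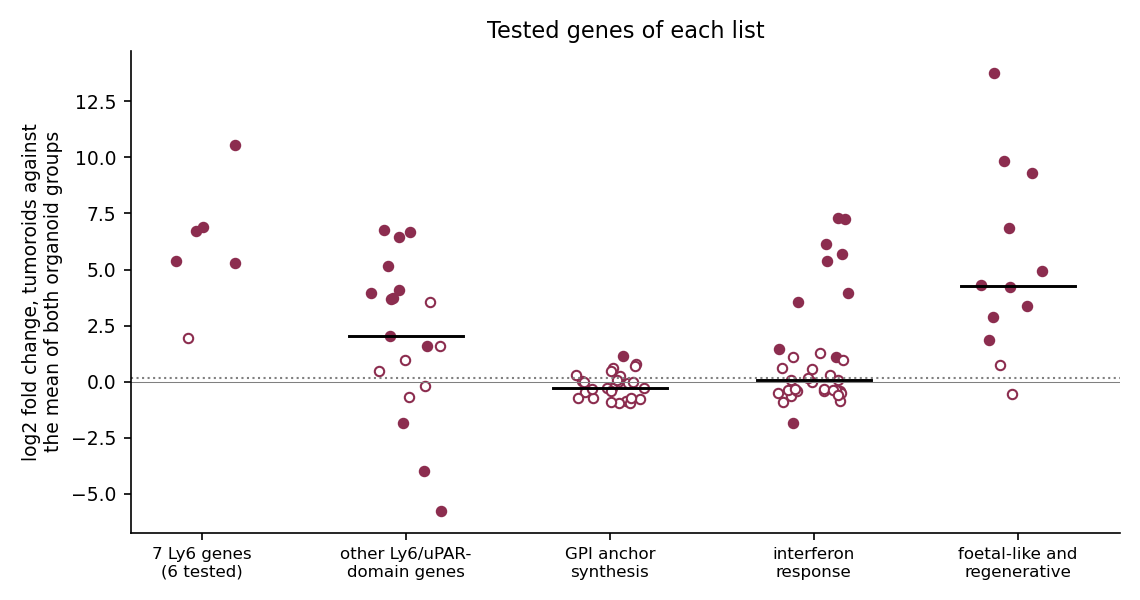
Log2 fold change, tumoroids against the mean of both organoid groups (vertical axis), of each tested gene in 5 lists; filled points were called, horizontal bars are list medians (none for the 6 Ly6 genes) and the dotted line is the median of all tested genes, 0.165. The GPI anchor genes lie near 0, while the 12 foetal-like and regenerative markers, of which 3 passed the TPM filter through tumoroids alone, have a median of 4.27.

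The genes whose levels followed the Ly6 genes most closely were looked for among 10677 genes with a mean of at least 100 reads, by Pearson's r of log2 CPM over the 9 libraries. The libraries of a group share their origin, and most of each r is the gap between tumoroids and organoids. For Ly6a they were Cers3, a ceramide synthase (r = 0.996), Tctn2, a protein of the ciliary transition zone (0.994) and Shf, an adaptor protein (0.990). Cers3 had 43, 22.8 and 70.1 CPM in tumoroids 1 to 3 and at most 0.317 CPM in organoids, near the limit of detection. Its highest organoid library was T-cM-titled organoids 1, as for Ly6a. Ly6e was the fifth closest gene to Ly6a (0.990). For Ly6d the closest were Slc9a4, a sodium-proton exchanger (0.990), Sytl1 (0.987) and the metalloprotease Adam8 (0.983). For Ly6e they were Cav1 (caveolin 1, 0.998), Vtcn1 (0.998) and Rcan3 (0.996). Cav1 was at 0 CPM in every organoid library and Vtcn1 at 0.0608 CPM or less. Neither could therefore follow Ly6e among organoids.

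After group means were subtracted, the closest to Ly6a were 4930523C07Rik (0.970), Tbc1d7 (0.968) and Smim7 (0.960), and to Ly6e they were Cog6 (0.990), Psme1 (0.989) and Pparg (0.988). The closest to Ly6d were Bst2 (0.991), Slc46a3 (0.987) and Grb2 (0.985). Bst2 also counts among the interferon genes that rose in tumoroids. On log2(TPM + 1) the 3 genes nearest to Ly6a over the 9 libraries were the same, in another order, whereas Smim7 moved to place 138 for Ly6a after group means were subtracted. For Ly6d, Grb2 moved from place 3 to place 811. For Ly6e, Cav1, Vtcn1 and Rcan3 moved to places 42, 18 and 11 and Cog6 to place 114. Such orders among near ties over 9 libraries are a description only.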

How the data were processed

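PolyA-selected RNA from 9 libraries, made with a stranded kit, was sequenced by the authors, who aligned the reads to mm10 with STAR. They deposited raw counts per gene, which are whole reads, and TPM, in which the authors scaled counts by gene length and library total. The counting tool, its strand setting and its treatment of reads fitting several genes are not given in the sources used here.

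Counts were tested with edgeR 4.0.16 (quasi-likelihood F test, TMM factors, Benjamini-Hochberg) in R 4.3.3 over the 16208 genes with at least 1 TPM in at least 1 of the libraries. Organoid groups were compared with a replicate block, following the sample effect in the study's methods. Deviations of same-numbered organoid libraries correlated with r = 0.546, 0.338 and 0.547. Tumoroids were compared over all 9 libraries without it. DESeq2 1.42.0, limma 3.58.1, other scalings, filters and left-out libraries were alternatives. The steps were tested on simulated data. Genes named were the 7 members, of each list up to 4 with the smallest p in tumoroids against the mean of both groups and up to 3 between organoid groups, defining markers, and the 3 nearest in pattern. Krt20, Cd59b, Ly6g6f, Slurp1, Lypd3, Lypd5, Oas2, Ifi44, Gbp2, Gbp3, Irf1, Isg15, Irf7, Psmb8, Il33, genes of the cluster and some further cell type markers were named after their values were seen. Genes that this rule names but the text does not are not reported here. The members and lists were chosen with earlier results of these data known. P-values measure the spread between these libraries. Genome positions are from GENCODE on GRCm38.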

Additional observations from a re-analysis of the deposited data

How the results depend on the processing

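With the names of the treatment field, the log2 fold changes between organoid groups become -0.74 for Ly6a, 0.87 for Ly6d and 0.11 for Ly6e. Of all tested genes, 179 were called between the organoid groups. Without the replicate block 0 were called, and likewise 0 in the fit of 9 libraries with no replicate block and 0 on log2 TPM with a pseudocount of 0.1 or 1. DESeq2 called 93, limma voom 104, and 1634 passed with no fold threshold. Leaving out 1 pair gave 1 to 385, and 0 to 1 of the Ly6 genes (Ly6d without pair 1). The causes were not tested. Between tumoroids and the mean of both organoid groups 5363 genes were called, and 8165 with no fold threshold. Of 369 values of single Ly6 genes in tumoroid comparisons under alternatives, 0 changed sign, 360 kept their side of the threshold and 9, all of Ly6f, passed it newly. Tumoroids share only a number with organoids (best match with the same number in 3 of 6 comparisons), and the replicate block added there gave 5, 5 and 6 Ly6 genes called. Upper-quartile factors moved the median of all genes in tumoroid comparisons by 0.102 to 0.109 (log2) and TPM with a pseudocount of 1 by 0.347 to 0.374, while RLE factors moved it by -0.0591 to -0.0532. With 3 libraries a group and at most 5 reads in organoids, small differences of Ly6c1, Ly6f and Ly6g between organoid groups could not be seen.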
